A study of Mus musculus with 9 samples.

Results

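Interleukin-2 (IL-2) is the growth cytokine of activated T cells, and the genes described here are Il2, the IL-2 receptor chain genes Il2ra, Il2rb and Il2rg, the transcription factor genes Stat5a and Stat5b, and the feedback inhibitor genes Cish, Socs1, Socs2 and Socs3. The 10 genes were chosen by name, and each was represented by its brightest array probe set over all arrays. Of these, 9 had a probe set carrying their symbol alone, out of 19938 genes measured in the series. Il2rg was not analysed here.

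The series measured RNA of CD4-enriched T cells from the spleen of C57BL/6J mice on 9 one-colour arrays, 3 in each group. All cultures lasted 72 h on beads coated with antibodies to CD3 and CD28, at 10 cells per bead. The wild-type group and the CD69-/- group, which lacks the early activation receptor CD69, received the beads only. The CD69-activated group consisted of wild-type cells that also received antibody to CD69 after 24 h and, after 48 h, a secondary antibody to cross-link it, each diluted 1 in 200. The series asks which transcripts depend on CD69. The labels describe no culture with an isotype control or with the secondary antibody alone, so ligation of CD69 and other effects of the antibodies cannot be told apart. They call the samples biological replicates without naming the mice, so the p-values rest on the spread of the arrays, part of which may be technical.

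T cells make IL-2 after stimulation through the T cell receptor and CD28. IL-2 binds a receptor of 3 chains: the alpha chain CD25, encoded by Il2ra, raises the affinity, while the beta chain, encoded by Il2rb, and the common gamma chain, encoded by Il2rg, signal through the kinases JAK1 and JAK3. STAT5A and STAT5B, phosphorylated by these kinases, switch on growth and survival genes, Il2ra itself, and genes of the SOCS family. CIS (from Cish) and the SOCS proteins carry an SH2 domain and a SOCS box and limit cytokine signalling, which makes them a negative feedback arm.

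Values are log2 expression values, and a difference of 1 is a 2-fold change. Array medians lay between 7.40 and 7.56. Precision is limited by having 3 arrays in a group. Probe sets differ in brightness, so levels are compared between groups for a gene and never between genes. Cd69, the deleted gene, had a mean of 9.59 in CD69-/- cells and of 12.17 in wild type. The position of its probes relative to the deletion was not analysed here, so this is a weak check of the labels. Y-linked genes were expressed in the CD69-/- arrays (Eif2s3y mean 9.78) and at background in the other 6 (4.33 in wild type), while Xist, expressed from the inactive X chromosome in females, had means of 6.01 and 12.59, so sex and genotype cannot be told apart in any comparison with CD69-/-. The T cell genes Cd3e (mean 12.50 in wild type) and Cd4 (11.98) were bright. B cell genes were bright as well, with Cd79b at 13.61 in wild type, and Cd8b1, a marker of CD8 T cells, was at 12.40. How far the CD4 T cells were enriched cannot be read from these levels.

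The promoters of 4 of these genes are shown, each highest in CD69-/- cells and lowest after CD69 activation, with the fall of Socs3 at the threshold. NFAT, induced through the T cell receptor, and STAT5 are textbook regulators of the family. Stat5a had the same order of groups, and its promoter is not shown. Each stretch holds the 250 bases before the RefSeq transcription start, 5′ to 3′ on the strand of the gene, in build GRCm38.p6. It is taken from chr3:37125955-37126204 on the minus strand for Il2, chr2:11642542-11642791 on the plus strand for Il2ra, chr9:107296409-107296658 on the plus strand for Cish, and chr11:117969367-117969616 on the minus strand for Socs3. Capitals mark matches to the NFAT core GGAAA, which reads TTTCC when it lies on the other strand, the AP-1 site TGANTCA and the STAT5 site TTCNNNGAA, the last 2 of which read as the same motif on both strands. No matches to different motifs overlapped.
Il2: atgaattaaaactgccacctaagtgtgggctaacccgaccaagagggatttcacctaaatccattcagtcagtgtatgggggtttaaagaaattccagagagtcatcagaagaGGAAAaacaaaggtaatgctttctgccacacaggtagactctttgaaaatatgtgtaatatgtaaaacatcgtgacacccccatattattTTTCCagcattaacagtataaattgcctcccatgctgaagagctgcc
Il2ra: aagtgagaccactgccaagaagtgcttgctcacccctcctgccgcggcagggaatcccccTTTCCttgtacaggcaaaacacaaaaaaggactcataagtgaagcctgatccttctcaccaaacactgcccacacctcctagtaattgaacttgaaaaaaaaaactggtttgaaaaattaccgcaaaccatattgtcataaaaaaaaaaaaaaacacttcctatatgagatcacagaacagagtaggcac
Cish: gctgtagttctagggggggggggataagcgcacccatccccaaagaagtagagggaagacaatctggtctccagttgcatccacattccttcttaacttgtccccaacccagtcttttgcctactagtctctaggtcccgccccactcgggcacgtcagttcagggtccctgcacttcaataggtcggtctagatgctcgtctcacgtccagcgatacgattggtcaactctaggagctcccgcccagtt
Socs3: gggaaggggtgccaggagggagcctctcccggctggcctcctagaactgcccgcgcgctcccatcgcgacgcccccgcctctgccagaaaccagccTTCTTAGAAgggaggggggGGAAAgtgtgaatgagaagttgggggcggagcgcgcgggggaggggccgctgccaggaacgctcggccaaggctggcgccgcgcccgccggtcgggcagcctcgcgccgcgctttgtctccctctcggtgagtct

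The Il2 stretch held 2 NFAT core matches, beginning 137 and 47 bases before the start, and no match to the other motifs. Il2ra held 1 NFAT core match, 190 bases before the start, and Cish held no match to any of the 3 motifs. Socs3 held the STAT5 motif 154 bases and the NFAT core 135 bases before its start. Among all 32851 promoter stretches of this length, 55.6% held the NFAT core, 6.75% the AP-1 site and 7.02% the STAT5 site, so the NFAT core is a common string. A match is a description of the letters, and its absence says only that they are not in this window. The table of promoters held 8 of the 10 genes, without Il2rb and Socs2. Socs1 and Il2rg, not shown, each held the NFAT core and no AP-1 or STAT5 match. Stat5a and Stat5b, also not shown, had 2 stretches each, from different starts. For each gene 1 stretch held the NFAT core and the other did not, and neither held an AP-1 or STAT5 match. Socs3 was thus the only gene with a STAT5 match.

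Il2 itself was highest without CD69 and lowest after CD69 activation. Its log2 level was 8.23, 8.31 and 8.10 on the wild-type arrays, 8.87, 8.69 and 8.91 on the CD69-/- arrays and 7.34, 7.11 and 7.11 on the CD69-activated arrays. Every CD69-/- array lay above every wild-type array, and every CD69-activated array lay below both. Compared with wild type, Il2 rose 1.53-fold in CD69-/- cells (log2 change 0.61, SE 0.078, limma adjusted p = 2.60e-04, n = 3 per group) and was 2.04-fold lower after CD69 activation (log2 change -1.03, SE 0.078, adjusted p = 6.67e-06). Between CD69-activated and CD69-/- cells the difference was 3.11-fold (log2 change -1.64, adjusted p = 7.47e-08), rank 17 of 19938 among the falls of that comparison.

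**Figure D1:**
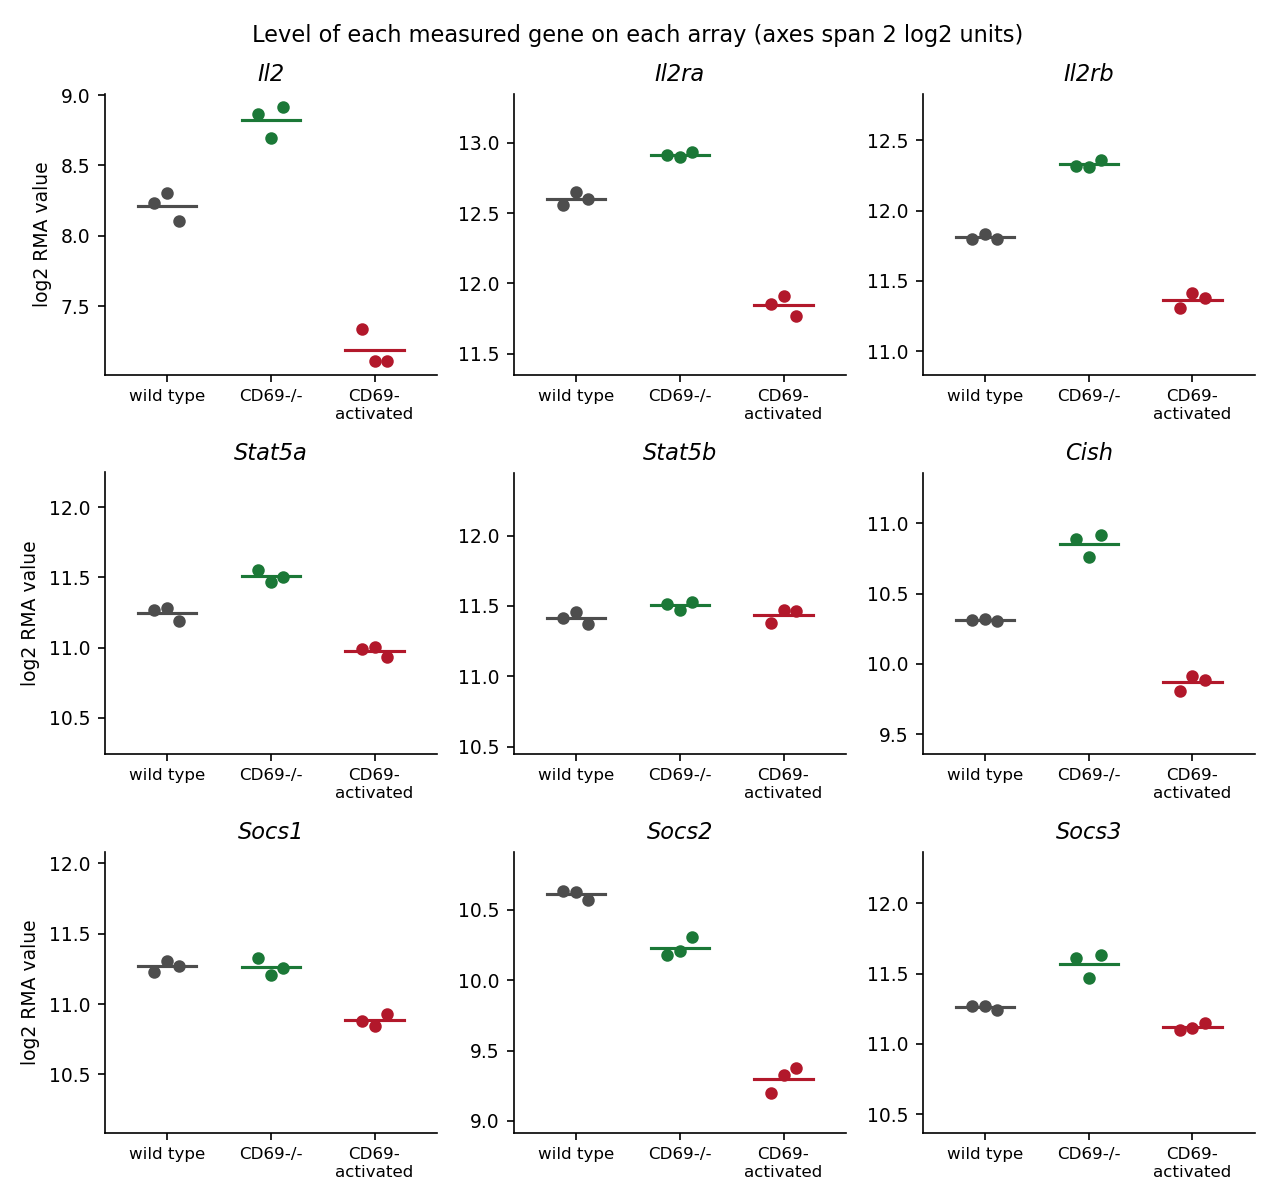
Log2 RMA value (y axis) of each of the 9 measured genes on each array, by group (x axis); points are arrays, bars are group means, and every panel spans 2 log2 units. Il2, Il2ra, Il2rb, Stat5a, Cish and Socs3 run from CD69-/- at the top to CD69-activated at the bottom, Socs2 is highest in wild type, and Stat5b is nearly level.

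Both measured receptor chain genes followed the same order of groups. Il2ra had levels of 12.56, 12.65 and 12.60 on the wild-type arrays, 12.91, 12.90 and 12.93 on the CD69-/- arrays and 11.85, 11.91 and 11.77 on the CD69-activated arrays. The 3 groups were separate. Il2ra rose by 0.31 in CD69-/- cells (SE 0.044, adjusted p = 5.01e-04) and fell by 0.76 after CD69 activation (SE 0.044, adjusted p = 9.73e-07). Il2rb, whose product also serves the IL-15 receptor, had levels of 11.80, 11.83 and 11.80 on the wild-type arrays, 12.32, 12.31 and 12.36 on the CD69-/- arrays and 11.31, 11.41 and 11.38 on the CD69-activated arrays. It rose by 0.52 without CD69 (SE 0.038, adjusted p = 5.88e-06) and fell by 0.45 after activation (SE 0.038, adjusted p = 1.59e-05). The difference between the genes in these changes was not tested. Both comparisons share the wild-type arrays and are not independent.

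Stat5a changed in the order of Il2, and Stat5b did not pass in any comparison. Stat5a had levels of 11.27, 11.29 and 11.19 on the wild-type arrays, 11.55, 11.47 and 11.50 on the CD69-/- arrays and 10.99, 11.00 and 10.94 on the CD69-activated arrays. It rose by 0.26 in CD69-/- cells (SE 0.041, adjusted p = 0.00119) and fell by 0.27 after CD69 activation (SE 0.041, adjusted p = 7.43e-04). Stat5b had levels of 11.41, 11.46 and 11.37 on the wild-type arrays, 11.52, 11.47 and 11.53 on the CD69-/- arrays and 11.38, 11.47 and 11.46 on the CD69-activated arrays, with wild-type and CD69-activated arrays overlapping. Its change was 0.093 in CD69-/- cells (95% interval 0.0047 to 0.18, adjusted p = 0.163) and 0.025 after activation (95% interval -0.063 to 0.11, adjusted p = 0.704). Between CD69-activated and CD69-/- cells Stat5b was at -0.068 (adjusted p = 0.192), but with arrays centred on their medians it was at -0.20 and passed (adjusted p = 0.00338). Stat5a and Stat5b are close paralogs whose probes may cross-hybridise, which was not tested, and neither was the difference between their changes.

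Among the feedback genes, Cish and Socs3 were higher without CD69, Socs1 did not pass, and Socs2 was lower. Cish, a classical STAT5 target, had levels of 10.31, 10.32 and 10.31 on the wild-type arrays, 10.89, 10.76 and 10.91 on the CD69-/- arrays and 9.81, 9.91 and 9.89 on the CD69-activated arrays. The wild-type arrays were nearly equal, and both other groups lay outside them. Cish rose 1.45-fold without CD69 (log2 change 0.54, SE 0.046, adjusted p = 1.61e-05) and was 1.36-fold lower after activation (log2 change -0.44, SE 0.046, adjusted p = 6.44e-05). CD69-activated and CD69-/- cells differed 1.98-fold (log2 change -0.98, adjusted p = 7.03e-08).

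Socs2, an inhibitor best known for restraining growth hormone signalling and also induced by STAT5, was highest in wild type. Its levels were 10.63, 10.63 and 10.57 on the wild-type arrays, 10.18, 10.20 and 10.31 on the CD69-/- arrays and 9.20, 9.33 and 9.38 on the CD69-activated arrays. The 3 groups did not overlap, and the other 2 lay on the same side of wild type. Socs2 fell by 0.38 in CD69-/- cells (SE 0.052, adjusted p = 4.28e-04) and was 2.48-fold lower after CD69 activation (log2 change -1.31, SE 0.052, adjusted p = 5.97e-08), rank 19 of 19938 among the falls. A second, dimmer Socs2 probe set changed in the same directions by smaller amounts, -0.26 (adjusted p = 6.36e-04) and -0.65 (adjusted p = 1.31e-06).

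Socs1, an inhibitor of JAK kinases that restrains interferon gamma and IL-2 signalling, had levels of 11.23, 11.31 and 11.27 on the wild-type arrays, 11.33, 11.21 and 11.26 on the CD69-/- arrays and 10.88, 10.84 and 10.93 on the CD69-activated arrays. Wild-type and CD69-/- arrays overlapped, with a change of -0.0034 (95% interval -0.097 to 0.091, adjusted p = 0.975). After activation Socs1 fell by 0.38 (SE 0.043, adjusted p = 9.68e-05), and all 3 CD69-activated arrays lay below the others. Socs3, best known as the inhibitor of IL-6 family signalling, had levels of 11.27, 11.27 and 11.24 on the wild-type arrays, 11.61, 11.47 and 11.64 on the CD69-/- arrays and 11.10, 11.11 and 11.15 on the CD69-activated arrays. It rose by 0.31 without CD69 (SE 0.046, adjusted p = 7.14e-04). Its fall of 0.14 after activation was at the threshold (adjusted p = 0.0487) and did not pass after cyclic loess (-0.10, adjusted p = 0.102), with array weights (adjusted p = 0.0743), without CD69-/- replicate 1 (adjusted p = 0.0605), or without any single array of the groups compared (adjusted p from 0.0588 to 0.122). The second Socs3 probe set was at 0.31 (adjusted p = 0.00318) without CD69 and at -0.27 (adjusted p = 0.00539) after activation.

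**Figure D2:**
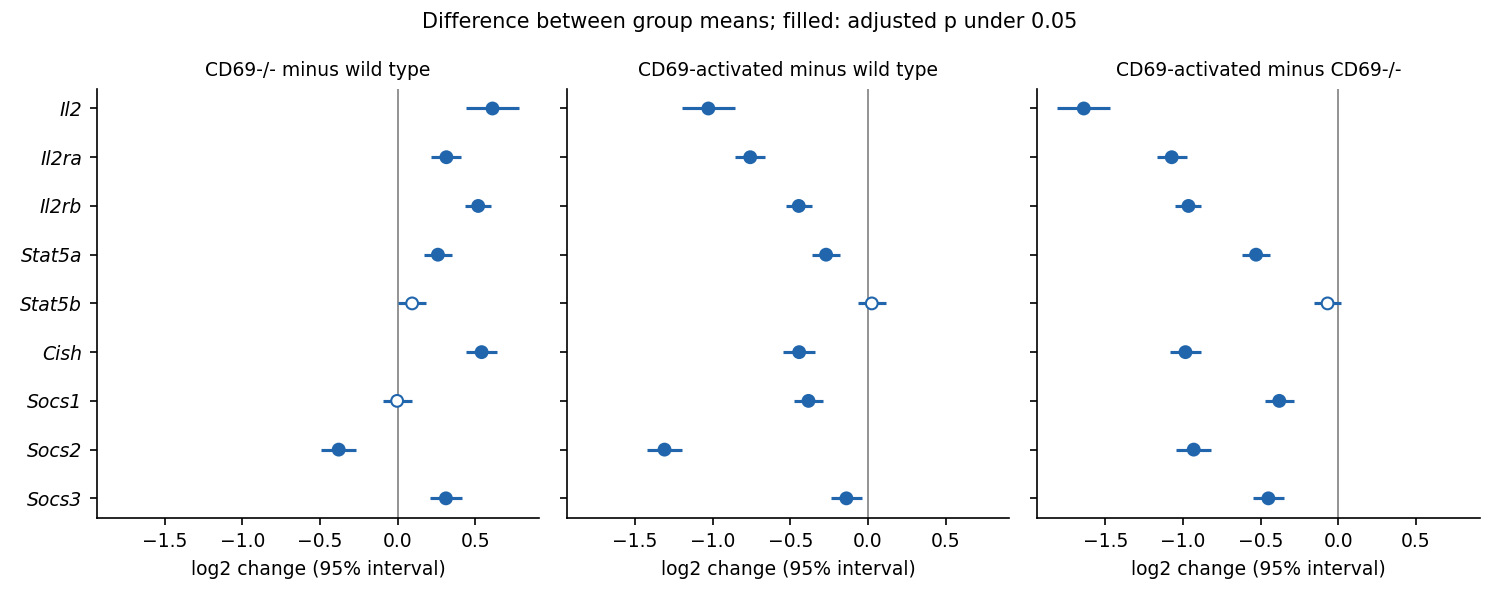
Difference between group means on the log2 scale (x axis) with its 95% interval from limma, for each gene (y axis) in the 3 comparisons; filled points have an adjusted p under 0.05. In CD69-activated minus wild type every filled point is below 0, from -1.31 for Socs2 to -0.14 for Socs3, while in CD69-/- minus wild type Socs2 (-0.38) is the only filled point below 0.

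Counted over the 9 measured genes, 6 rose and 1 fell in CD69-/- cells compared with wild type, where 8.36% of all genes rose and 6.78% fell (15.1% in either direction). The 2 that did not pass were Stat5b and Socs1. The median change over the 9 genes was 0.31, beside -0.0091 over all genes. After CD69 activation 8 fell, Stat5b did not pass and none rose, where 13.7% of all genes fell and 10.1% rose, 23.8% together (median -0.44, beside 0.017 over all genes). With arrays centred on their medians the splits over all genes were 2462 higher and 886 lower in CD69-/- and 764 higher and 4741 lower after activation, in place of 1667 and 1351 and of 2015 and 2727, and the counts over the 9 genes stayed at 6, 1 and 8. In CD69-activated compared with CD69-/- cells 8 fell and none rose, where 21.0% of all genes fell and 42.6% changed in either direction (median -0.93, beside 0.035), and 9 fell with median centring, which changed the calls over all genes from 4314 higher and 4187 lower to 1354 and 7990. That last comparison shares arrays with both others.

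The arrays of the groups did not overlap for 7 genes that were higher and 1 that was lower in CD69-/- cells, against 17.3% and 15.9% of all genes. After activation 8 genes lay wholly below wild type, against 17.9% of all genes, and all 9 lay wholly below CD69-/-, against 24.2%.

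RNA levels of several cell type markers also differed between the groups. In CD69-/- compared with wild type, 8.36% of all genes rose and 6.78% fell. In CD69-/- arrays 9 of 10 measured CD4 T cell markers rose (median 0.37; log2 of their summed level 15.47 to 15.49, against 15.03 to 15.10 in wild type). Both CD8 markers rose (median 0.52), 6 of 8 regulatory T cell markers rose and 1 fell (median 0.44), and B cell markers fell in 11 of 11 cases (median -0.47; summed level 15.41 to 15.51, against 15.87 to 15.93). Myeloid markers fell in 9 of 11 cases (median -0.47; summed level 11.04 to 11.18, against 11.88 to 11.91), and NK cell markers were mixed (3 rose, 4 fell, of 9). The neutrophil list had no called gene among 8, and proliferation genes rose in 1 of 11 cases. Even Eif2s3y, at background in wild type, had a mean of 4.33 there, so a low value alone does not show that a marker is absent. In these bulk samples, fewer cells of a type and less RNA per cell cannot be told apart.

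After CD69 activation the summed CD4 T cell marker level was 15.01 to 15.03, with 3 of 10 markers lower (median -0.058). Of all genes 10.1% rose and 13.7% fell after activation. Proliferation genes, all of them markers of dividing cells, fell in 11 of 11 cases (median -1.11; summed level 12.62 to 12.69, against 13.50 to 13.59 in wild type). NK cell markers fell in 7 of 9 cases (median -0.73; summed level 12.18 to 12.29, against 13.14 to 13.18), both CD8 markers fell (median -0.39), and regulatory T cell markers were mixed (1 rose, 3 fell, of 8). Among 11 B cell markers 1 rose and 3 fell (median -0.072), and among 11 myeloid markers 4 rose and 2 fell (median 0.11; summed level 12.15 to 12.21). Against CD69-/- arrays, CD69-activated arrays had 10 of 10 CD4 T cell markers lower (median -0.50), 11 of 11 B cell markers higher (0.42) and 11 of 11 proliferation genes lower (-1.18). Of all genes 21.6% rose and 21.0% fell in that comparison. The part of division, CD8 T cells, NK cells and cell makeup in the changes of the IL-2 genes was not tested.

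**Figure D3:**
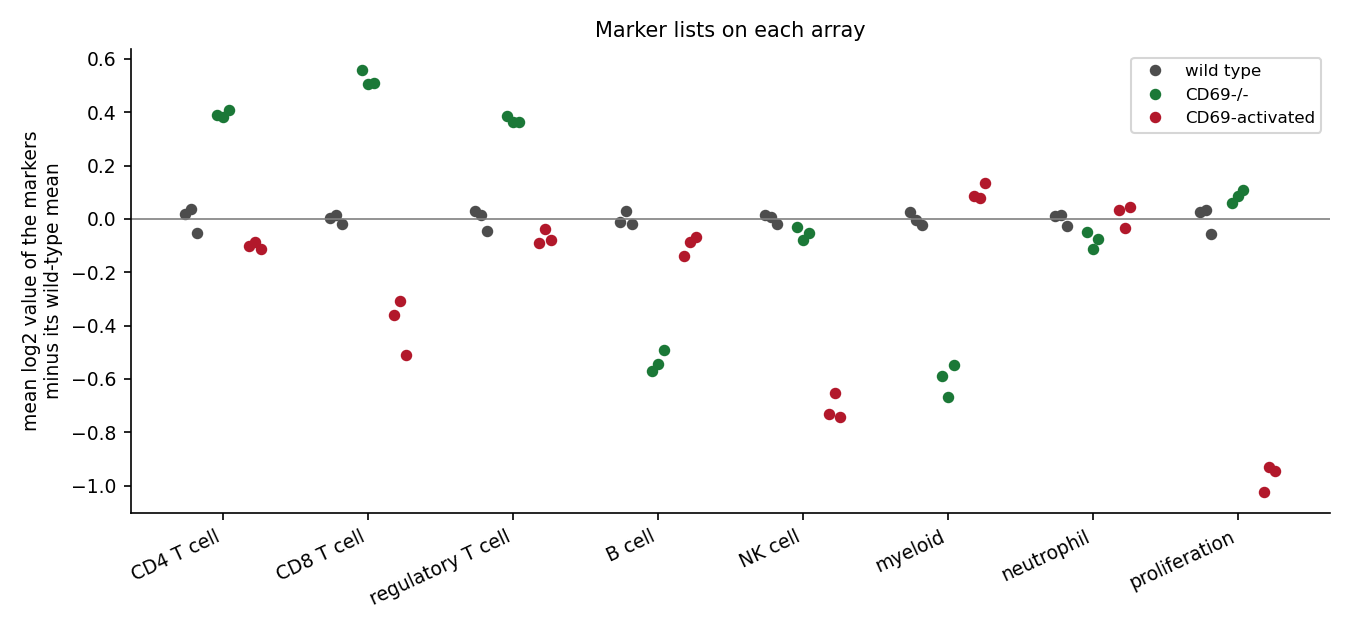
Mean log2 value of the measured markers of each cell type or state on each array, minus the wild-type mean of that list (y axis), by marker list (x axis) and group (colour); points are arrays. CD4, CD8 and regulatory T cell markers are higher and B cell and myeloid markers lower in CD69-/- arrays. Proliferation genes, NK cell markers and CD8 markers have the largest falls in CD69-activated arrays.

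Because T cell markers differed between groups, the fit was repeated with each array centred on its 10 CD4 T cell markers, a scale chosen after the marker values were seen. It shifts the median of all genes to -0.40 in CD69-/- and 0.12 after activation, and in CD69-/- cells it called 134 of all genes higher and 19224 lower. Relative to these markers, Il2 (0.22, adjusted p = 0.00833), Cish (0.15, adjusted p = 0.00975) and Il2rb (0.13, adjusted p = 0.0108) remained higher in CD69-/- cells. Il2ra (-0.080, adjusted p = 0.107) and Socs3 (-0.083, adjusted p = 0.107) did not pass, and Stat5a was lower (-0.13, adjusted p = 0.00545). Socs2 (-0.77), Socs1 (-0.40) and Stat5b (-0.30) were lower, with adjusted p of 1.27e-07, 5.65e-06 and 1.15e-05. The 10 markers differed among themselves in CD69-/- cells, from 0.0069 for Trat1, which did not pass, to 0.60 for Thy1. As deposited, Cish (0.54) and Il2rb (0.52) lay within that range and Il2 (0.61) just above it. Centring without Trat1 was not tried.

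After CD69 activation the same scale left 7 genes lower, where 1643 of all genes were lower and 9486 higher, and moved each change by about the shift of the median. Il2 was at -0.92, Il2ra at -0.66, Il2rb at -0.34, Cish at -0.34, Socs1 at -0.28, Stat5a at -0.17 and Socs2 at -1.21, with adjusted p of at most 0.00562. Socs3 no longer passed (-0.036, adjusted p = 0.515), and Stat5b passed as higher (0.13, adjusted p = 0.0200). Between CD69-activated and CD69-/- cells, 5 genes stayed lower on this scale, where 449 of all genes were lower and 18527 higher (Il2 at -1.14, Il2ra at -0.58, Cish at -0.49, Il2rb at -0.47 and Socs2 at -0.43). Stat5a no longer passed there (-0.033, adjusted p = 0.432, in place of -0.53), and the direction turned for Stat5b (0.43), Socs1 (0.12) and Socs3 (0.047, which did not pass).

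**Figure D4:**
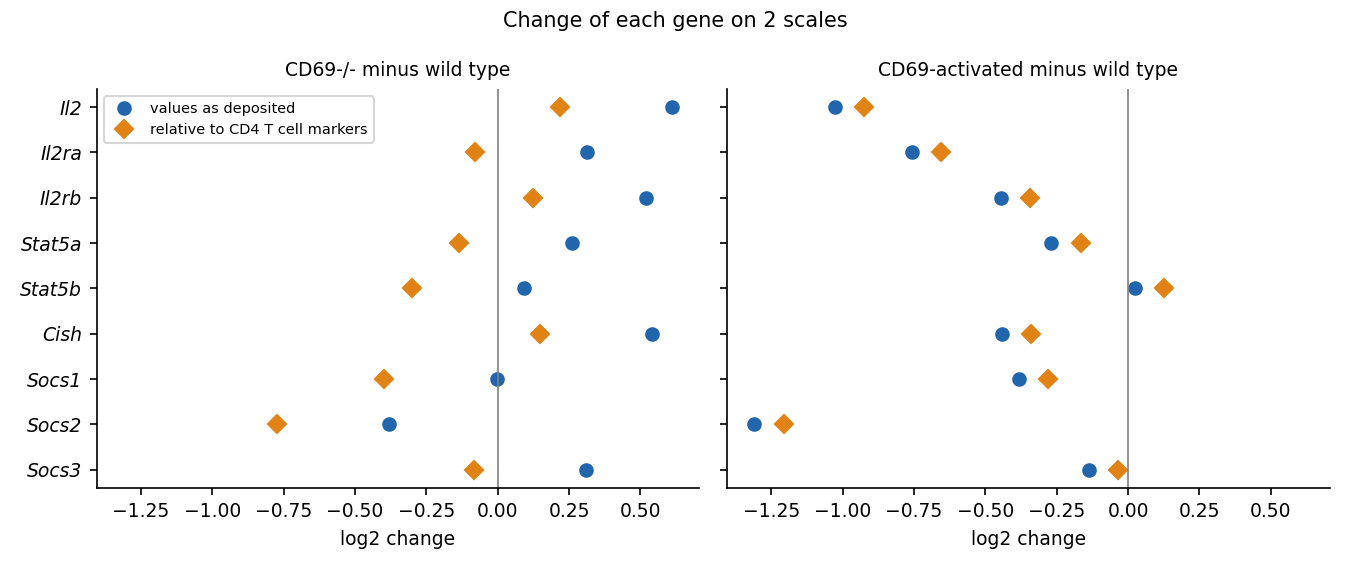
Log2 change of each gene (x axis) in CD69-/- minus wild type (left) and CD69-activated minus wild type (right), from the values as deposited (circles) and with each array centred on its CD4 T cell markers (diamonds). On the left the diamonds of Il2, Il2rb and Cish stay above 0 and that of Il2ra does not; on the right both marks lie close together.

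Genes that IL-2 and STAT5 induce were mostly higher without CD69 and lower after its activation. Of 30 such genes 26 rose and 1 fell in CD69-/- cells (median 0.32, beside 0.37 for the CD4 T cell markers). Over all genes 8.36% rose and 6.78% fell there. On the CD4 T cell marker scale, 9 of the 100 genes over all pathway lists were higher and 73 lower there, in place of 42 and 9. Over all 19938 genes that scale called 134 higher and 19224 lower, so most genes were called lower on it. Gzmb, encoding granzyme B, rose by 1.01, the IL-18 receptor gene Il18r1 by 0.77 and the IL-12 receptor gene Il12rb2 by 0.59, with limma adjusted p of at most 7.29e-06. The gene that fell was Il10ra, an IL-10 receptor chain (-0.48), named after its values were seen. After CD69 activation 18 of 30 fell and none rose (median -0.23), where 13.7% of all genes fell, led by Gzmb (-1.56), the costimulatory receptor gene Tnfrsf9 (-0.95) and Myc, the growth regulator (-0.81), with adjusted p of at most 1.51e-06. Set against CD69-/- cells, CD69-activated cells had 27 lower and 1, Il10ra, higher (median -0.59), where 21.0% of all genes fell and 21.6% rose. Gzmb was at -2.57 in that comparison, the perforin gene Prf1 at -1.33 and Tnfrsf9 at -1.20. Many of these genes are also induced by other signals, and Gzmb and Prf1 belong to CD8 T cells and NK cells as well. CD8 markers rose and fell in the same comparisons, and NK cell markers fell after activation and were mixed in CD69-/- cells.

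**Figure D5:**
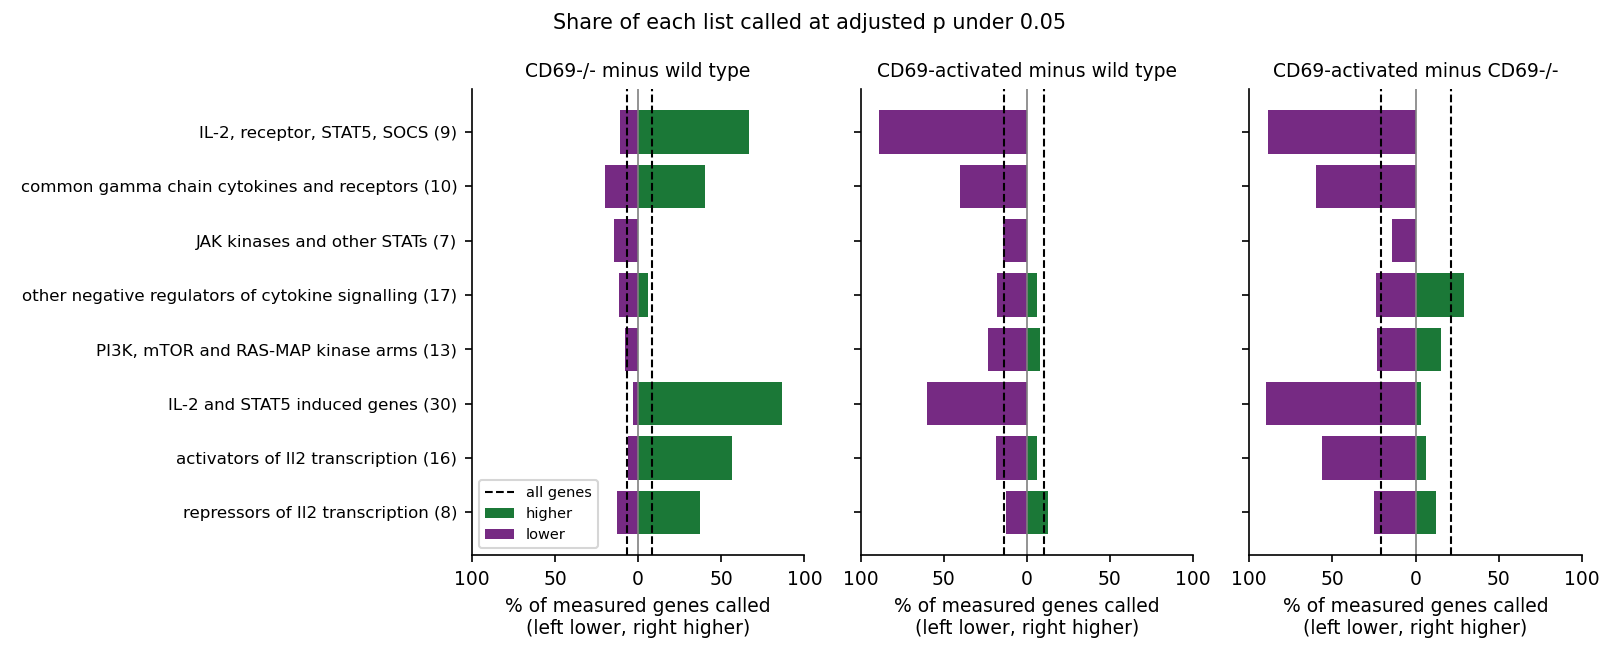
Percent of the measured genes of each list (y axis, number measured in brackets) that passed as higher (right) or lower (left) in each comparison at an adjusted p under 0.05; dashed lines give the percent of all genes. The IL-2 genes (top bar) and the IL-2 and STAT5 induced genes lie beyond the dashed lines (26 of 30 induced genes higher in CD69-/-, against 8.36% of all genes). The JAK and STAT bar is 1 gene of 7, lower, in each comparison.

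Among transducers next to the receptor, 1 of 7 measured JAK and other STAT genes fell in each comparison and none rose, where 15.1%, 23.8% and 42.6% of all genes were called in the 3 comparisons. Stat2, a partner in interferon signalling, fell by 0.18 in CD69-/- cells (adjusted p = 0.00796) and by 0.16 after activation (adjusted p = 0.00974), and Jak2 was lower in CD69-activated than in CD69-/- cells (-0.16, adjusted p = 0.0178). Of 13 measured genes of the PI3K, mTOR and RAS-MAP kinase arms, 1 fell in CD69-/- cells, the adaptor gene Gab2 (-0.31). After activation 3 fell, Akt2 (-0.17), Map2k1 (-0.17) and Akt1 (-0.15), and 1 rose, the PI3K subunit gene Pik3ca (0.13), named after its values were seen, so that 4 of 13 were called where 23.8% of all genes were. The comparison of CD69-activated with CD69-/- cells had 3 that fell, among them Akt2 and Akt1 (both -0.25), and 2 that rose, among them Gab2 (0.23), beside 42.6% of all genes called.

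Other negative regulators of cytokine signalling were called at about the share of all genes against wild type. Of 17, 1 rose and 2 fell in CD69-/- cells, where 15.1% of all genes were called: the docking protein gene Dok2 rose by 0.43, and the adaptor gene Sh2b3 (-0.28) and the phosphatase gene Ptpn6, encoding SHP-1 (-0.19), fell. After activation 1 rose and 3 fell, where 23.8% of all genes were called, with Cbl, a ubiquitin ligase gene, at 0.17 and the phosphatase genes Ptpn2 at -0.33 and Ptpn1 at -0.19. Against CD69-/- cells, CD69-activated cells had 5 higher and 4 lower, where 21.6% of all genes rose and 21.0% fell. Ptpn2 (-0.51) and Dok2 (-0.41) were lower there and Sh2b3 was higher (0.29).

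Cytokines and receptors that share the common gamma chain were mixed. Of 10, 4 rose and 2 fell in CD69-/- cells, where 8.36% of all genes rose and 6.78% fell. Il21, the cytokine of helper T cells, had the largest change at 1.81 (SE 0.095, adjusted p = 8.23e-07), Il9 was at -0.98 (adjusted p = 5.88e-04) and the IL-7 receptor gene Il7r at 0.43 (adjusted p = 3.55e-05). After activation 4 fell and none rose, where 13.7% of all genes fell and 10.1% rose, with Il21 at -1.46, Il9 at -1.09 and Il15, the other cytokine that signals through Il2rb, at -0.64. Il4 did not pass in either comparison with wild type (0.14 and -0.091).

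Many genes that drive Il2 transcription were higher in CD69-/- cells. Of 16 measured activators 9 rose and 1, Rel, fell (median 0.20), where 8.36% of all genes rose and 6.78% fell, with Cd28 at 0.62, the AP-1 gene Fosl2 at 0.50 and Nfatc2, encoding an NFAT factor, at 0.46. Cd28 is a T cell gene, and its rise stood beside that of the CD4 T cell markers (median 0.37). After activation, when Il2 was 2.04-fold lower, 3 activators fell and 1 rose (median 0.031), where 23.8% of all genes were called: Jun was at -0.36, Egr1 at -0.33 and Fosb at 0.26. Cd28 (0.0031) and Nfatc2 (0.035) did not pass. Of 8 repressors 3 rose and 1 fell in CD69-/- cells, and 1 rose and 1 fell after activation, so that after activation both lists were called at about the share of all genes. Prdm1, encoding Blimp-1 and listed also among the IL-2 induced genes, was at 0.26 in CD69-/- and -0.16 after activation, the same directions as Il2, while Ikzf3, encoding Aiolos, was at -0.16 in CD69-/- cells. The share of activators and of repressors that changed was not compared by a test.

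The genes nearest in pattern were found by the root mean square difference over the 9 arrays of log2 values, each gene centred on its own mean, among 18594 genes. Nearest to Il2, whose arrays span 1.80, were Cxcl10 (0.11), Mfsd2a (0.12) and Nkg7 (0.12). Nearest to Il2ra, which spans 1.17, were Tagap (0.032), Klrk1 (0.050) and Myc (0.059). Nearest to Socs2, which spans 1.43, were Idi1 (0.092), Fscn1 (0.11) and Eomes (0.11). Nkg7, Klrk1 and Eomes are also in the NK cell marker list. Because neighbours were picked by pattern over these same arrays, sharing the group order of Il2, Il2ra or Socs2 follows from the choice. Among the neighbours of Socs2, Fscn1 was at -0.42 in CD69-/- cells and -1.54 after activation.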

How the data were processed

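The authors deposited log2 expression values of 35556 probe sets, which the submitters' processing notes credit to RMA (oligo, R 2.12.1). The sources used here give no settings or annotation. RMA compresses large fold changes. Of the probe sets, 21789 carried 1 gene symbol, 1621 several and 12146 none. Symbols were updated by gene ID through RefSeq (21698 matched), and the brightest probe set stood for each gene.

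The 3 group means were fitted over all 9 arrays with limma 3.58.1 in R 4.3.3 (6 residual and 4.78 prior degrees of freedom, no trend). Tests were two-sided and a Benjamini-Hochberg adjusted p under 0.05, over all 19938 genes, was called. The procedure was tested on simulated data. The genes, lists and tests were chosen with earlier results of these data known, so list counts are descriptions. Named were all 10 genes, up to 3 called genes per list and comparison with the largest change, and the 3 nearest patterns to Il2, Il2ra and Socs2. Of 109 pathway genes 100 were measured. Alternatives were median centring, cyclic loess, no dim genes, all or averaged probe sets, only the arrays compared, a trended robust prior, array weights, a replicate block, no X and Y genes, leaving out each array, and CD4 T cell marker centring. Figures used matplotlib 3.10.9.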

Additional observations from a re-analysis of the deposited data

How the results depend on the processing

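Il2, Il2ra, Il2rb, Stat5a, Cish and Socs2 kept their direction and their call in all 3 comparisons under all 19 alternatives planned from the labels, and Socs1 and Socs3 did so for CD69-activated minus CD69-/-. Of the values of single genes under these alternatives 497 kept direction and side of the threshold, 10 were weaker, 1 was stronger and 5 reversed. All 10 weaker values were of Socs3 after activation. The uncalled change of Socs1 in CD69-/- cells turned to 0.042 with median centring and ran from -0.035 to 0.024 when single arrays were left out (0.015, 0.024 and 4.28e-04 without wild-type replicate 2, CD69-/- replicate 2 and CD69-/- replicate 3), and that of Stat5b after activation to -0.056 with median centring. The cause was not tested.

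The replicate numbers gave no consistent sign of pairing. Same-numbered arrays of different groups deviated together with correlations of -0.24 to 0.14, and 1 of 9 was over 0.1. Arrays with different numbers were not compared in this way, so pairing is not excluded. With the replicate numbers as a block, 6 of the 9 genes were higher and 1 lower in CD69-/- cells. Over all 19938 genes, 1426 were higher and 1183 lower there. After activation 7 of the 9 were lower (Socs3 did not pass, adjusted p = 0.0664), where 1818 of all genes were higher and 2527 lower. Between CD69-activated and CD69-/- cells 8 of the 9 were lower, where 4048 of all genes were higher and 4007 lower.

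Over pathway genes called higher after activation (4), the count was 12 after cyclic loess, 10 with the trended robust prior, 7 with dim genes removed and 1 with median centring; between CD69-activated and CD69-/- cells (10) it was 3 with median centring. Median centring gave 886 genes lower in CD69-/- cells, 764 higher and 4741 lower after activation, and 1354 higher and 7990 lower between CD69-activated and CD69-/- cells. Leaving out each array gave 1092 to 1823 genes higher in CD69-/- cells, lowest without wild-type replicate 3.

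Centring on CD4 T cell markers, added after seeing the data, left 3 of the 9 genes higher and 4 lower in CD69-/- cells, 1 higher after activation, and 2 higher and 5 lower between CD69-activated and CD69-/- cells. It reversed Il2ra (-0.080), Stat5a (-0.13), Stat5b (-0.30) and Socs3 (-0.083) in CD69-/- cells, and Stat5b (0.43), Socs1 (0.12) and Socs3 (0.047) between CD69-activated and CD69-/- cells. Over all genes it gave 134 higher and 19224 lower, 9486 higher and 1643 lower, and 18527 higher and 449 lower in the 3 comparisons, and over pathway genes 9 and 73, 39 and 21, and 71 and 18. On this scale every gene of an array is shifted by the same amount.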
